A study of Mus musculus with 6 samples.

Results

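The genes described here are 43 type I interferon-stimulated genes, taken by name from a fixed list and matched to the gene identifiers of the count files through the mouse GRCm38 annotation. All 43 were found among the 55573 genes listed, and 41 of them had enough counts to be tested. They were measured by RNA sequencing in splenic regulatory T cells (Tregs), a class of CD4 lymphocyte that holds back immune responses, taken from bi-parental bone marrow chimeras, mice whose blood was rebuilt from the marrow of more than 1 kind of donor. There were 3 libraries of Nfkb2-/- Tregs and 3 of wild-type Tregs. Nfkb2 encodes p100, the precursor of the NF-kB subunit p52. Cells of both genotypes came out of the sorter at over 90% purity, per the labels, and rested for 2 h in culture medium before lysis, with no stimulus named. The labels give neither the sex nor the age of donors and hosts, nor what host cells remained in the chimeras.

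Type I interferons are secreted proteins that bind a receptor of the chains IFNAR1 and IFNAR2. The receptor's kinases JAK1 and TYK2 phosphorylate STAT proteins, STAT2 among them, which join IRF9 and bind a DNA element, the interferon-stimulated response element (ISRE), in front of the target genes. The products of these genes block virus entry, degrade foreign RNA, stop translation or sense nucleic acids, and some switch the response off again. T cells keep a low tonic level of the same genes without infection.

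The ISRE is a repeat of GAAA spaced by a pair of free bases. Of the 43 genes, 31 had a start in the RefSeq promoter table (GRCm38.p6, 250 bases before to 50 after each start). The core GAAANNGAA, searched on both strands, was present in 19 of these 31 (61.3%, exact 95% interval 42.2% to 78.2%), against 9.76% of the 27025 genes with a promoter there. Followed by AC, a form contained in the first, it was present in 13 of 31 (41.9%), against 0.944% of all genes. The GAS core TTCNNNGAA, which reads the same on both strands and can share bases with the ISRE core, was present in 6 of 31 (19.4%), against 9.55%. The windows below, each of 40 bases in the direction of the gene, show the match nearest the start in genes the results return to. Capitals mark every whole match to GAAANNGAA or its reverse complement in the window.
Isg15 (chr4:156200860-156200899, minus strand): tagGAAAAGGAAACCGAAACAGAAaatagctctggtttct
Oas1a (chr5:120907515-120907554, minus strand): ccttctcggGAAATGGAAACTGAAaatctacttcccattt
Ifit1 (chr19:34640790-34640829, plus strand): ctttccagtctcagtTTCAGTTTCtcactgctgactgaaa
Ifitm2 (chr7:140955983-140956022, minus strand): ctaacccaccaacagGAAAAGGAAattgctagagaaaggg
Bst2 (chr8:71537572-71537611, minus strand): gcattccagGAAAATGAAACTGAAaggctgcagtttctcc
Rsad2 (chr12:26456547-26456586, minus strand): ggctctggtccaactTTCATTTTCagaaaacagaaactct
Eif2ak2 (chr17:78882530-78882569, minus strand): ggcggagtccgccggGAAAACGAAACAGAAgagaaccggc
Ddx58 (chr4:40239798-40239837, minus strand): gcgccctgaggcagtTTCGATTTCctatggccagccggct
In Isg15, Oas1a, Bst2 and Eif2ak2 matches overlapped into a run of repeats, while Ifit1, Ifitm2, Rsad2 and Ddx58 had a single match in the window. The Oas1a window was identical to that of its neighbour Oas1g, and the Ifit3 window to that of its neighbour Ifit3b. The interval above treats genes as independent, which these pairs are not. A match describes letters, not binding.

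No interferon-stimulated gene passed the test between the genotypes. Of the 41 tested, 0 rose and 0 fell in Nfkb2-/- Tregs at an adjusted p under 0.05 (quasi-likelihood test of edgeR, Benjamini-Hochberg over all 13347 genes tested). Of all genes 1.42% passed, 1.01% higher and 0.405% lower in Nfkb2-/-. At an unadjusted p under 0.05 there were 6 of 41, against 13.6% of all genes. Log2 fold changes were positive for 17 genes and negative for 24, with a median of -0.12, beside -0.03 over all genes tested. They ran from -1.30 for Slfn1 to 0.91 for Ifitm2, and 32 of the 41 lay within 0.5 of zero. Standard errors ran from 0.128 to 0.600 with a median of 0.295, larger than the median of 0.226 over all genes. Changes the size of those seen in most of these genes were thus within the error of this design, and a missed threshold does not show that the levels were equal.

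**Figure D1:**
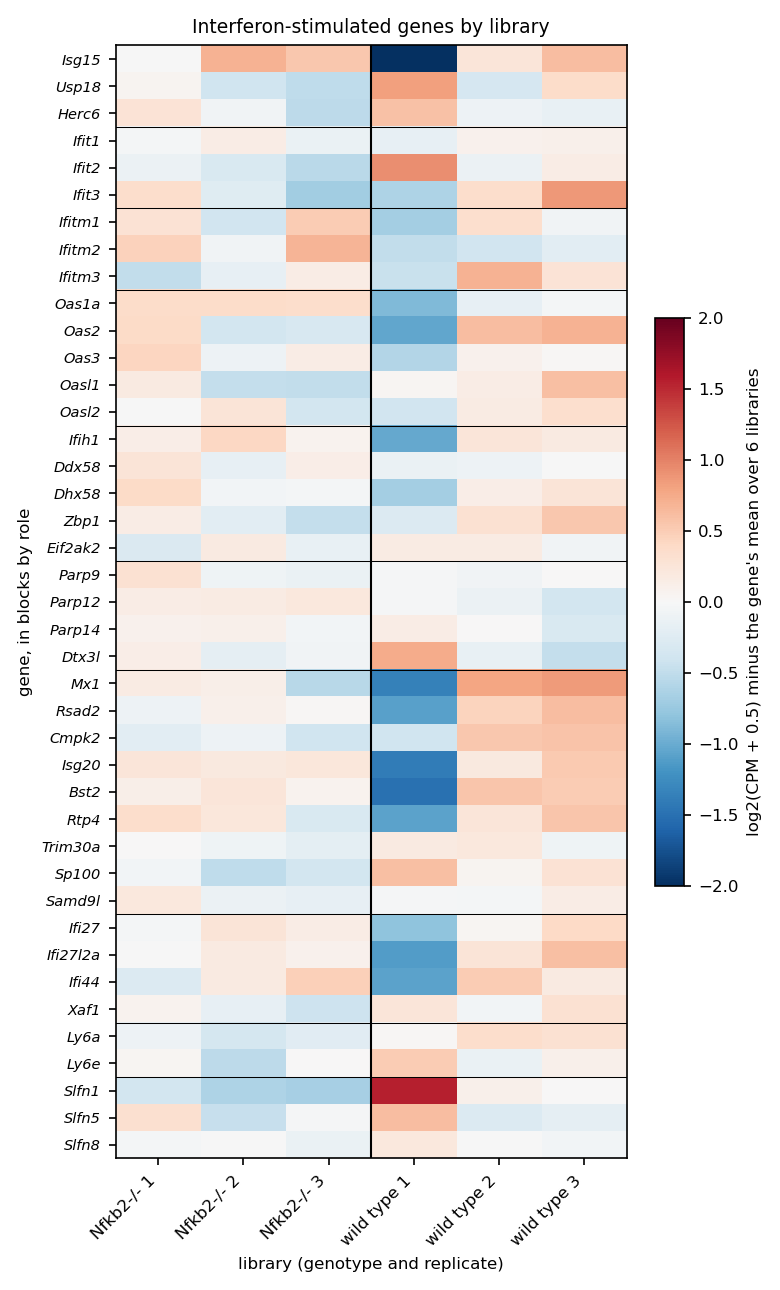
Level of each of the 41 tested interferon-stimulated genes in each library, as log2(CPM + 0.5) minus the gene's mean over the 6 libraries (red higher, blue lower), with genes in blocks by role. Wild-type replicate 1 holds both the darkest blue fields (Isg15, Bst2, Isg20, Mx1) and the darkest red (Slfn1).

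A few facts of the libraries bear on all that follows. Totals ran from 12005273 to 14359439 counts in the Nfkb2-/- libraries and from 12499343 to 17278521 in wild type, and the 43 genes took 0.193% to 0.233% of the counts in Nfkb2-/- and 0.227% to 0.287% in wild type. Levels are given as CPM, read counts scaled to library size with TMM factors. Nfkb2 itself was at 269, 324 and 271 CPM in Nfkb2-/- libraries, against 558, 545 and 556 CPM in wild type, lower without overlap but not absent. The Treg factor Foxp3 was at 448 to 576 CPM in Nfkb2-/- and 407 to 622 CPM in wild type, and all 7 Treg markers were detected in every library. Their levels were not all alike. Ikzf2 was higher and Il2ra lower in every Nfkb2-/- library (log2 fold changes 0.65 and -0.38). With all 6 libraries 0 of the 7 passed the test, while Ikzf2 passed without wild-type replicate 1 (edgeR adjusted p = 0.00806). Xist was at 841, 883 and 592 CPM in Nfkb2-/- and 1.94 to 16.5 CPM in wild type. The sum of 4 Y-linked genes was 40.0, 138 and 275 CPM in Nfkb2-/- and 465 to 498 CPM in wild type. Male-specific transcripts thus accompanied high Xist in every Nfkb2-/- library, in an amount that rose with the replicate number. Sex and genotype cannot be told apart here, and the part of this uneven signal in the fold changes was not tested. Wild-type replicate 1 stood apart: its log2 levels correlated across genes at r = 0.949 to 0.961 with the other libraries, and every other pair at 0.974 to 0.993. Fold changes of the interferon-stimulated genes are therefore also given without it. In bulk RNA, fewer cells of a type and less RNA per cell cannot be told apart.

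The levels of these genes spanned a wide range. Per kilobase of exon, Ifi27l2a, of the ISG12 family of small membrane proteins, had 239 CPM per kb in Nfkb2-/- and 237 CPM per kb in wild type. Ly6e, a surface protein that hinders the entry of some viruses, had 191 CPM per kb in Nfkb2-/- and 238 CPM per kb in wild type. Isg15, Ifi27, Ly6a and Bst2 followed, with 36.0 to 68.8 CPM per kb in Nfkb2-/- and 39.2 to 49.7 CPM per kb in wild type, and these 6 genes were in the top 10% of all genes tested. At the other end Ifi44 and Oas2 had 0.337 and 0.614 CPM per kb in Nfkb2-/-, and 0.297 and 0.806 CPM per kb in wild type. In all, 18 of 41 were above the median of the genes tested. Over the 6 libraries the number of counts per gene ran from 2 for Oas1g to 67569 for Ly6e.

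The pair of genes that were not tested had almost no counts. Oas1g, a near copy of Oas1a, had a total of 1 count in Nfkb2-/- and 1 in wild type. Ifit3b, a near copy of Ifit3, had 11 counts in Nfkb2-/- and 14 in wild type. Reads shared between near copies may be split or dropped in counting, so values of Ifit3 and Oas1a are uncertain to that degree.

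The Schlafen genes encode proteins that restrain growth and translation, and Slfn1 was described in mouse T cells as a brake on proliferation. Slfn1 had the largest fold change of all 41 genes with all 6 libraries, though not without wild-type replicate 1, where 7 others were larger. It was at 43.9, 36.7 and 35.7 CPM in Nfkb2-/- libraries, against 167, 60.8 and 56.9 CPM in wild type. All 3 Nfkb2-/- libraries were below all 3 wild-type libraries, and wild-type replicate 1 was far above the other wild-type libraries. The log2 fold change was -1.30 (SE 0.402, edgeR adjusted p = 0.197). Without wild-type replicate 1 it was -0.60 (SE 0.126, edgeR adjusted p = 0.0104), so the size of the fall more than halved on the log2 scale while its error shrank and it passed the test. DESeq2 called Slfn1 lower with all libraries (adjusted p = 0.0268), the only one of the 41 it called, where it called 5.09% of all genes. The neighbours Slfn5 and Slfn8, within 171 kb of it on chromosome 11, had log2 fold changes of -0.14 and -0.12 and overlapped between genotypes, and without wild-type replicate 1 they were at 0.21 and -0.03.

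The promoter of Slfn1 is shown whole because it held no GAAANNGAA, although the gene had the largest fold change with all 6 libraries (chr11:83116570-83116869, plus strand, RefSeq GRCm38.p6). Capitals mark its 4 copies of GAAA or TTTC. No match says only that these letters are not in this window.
Slfn1: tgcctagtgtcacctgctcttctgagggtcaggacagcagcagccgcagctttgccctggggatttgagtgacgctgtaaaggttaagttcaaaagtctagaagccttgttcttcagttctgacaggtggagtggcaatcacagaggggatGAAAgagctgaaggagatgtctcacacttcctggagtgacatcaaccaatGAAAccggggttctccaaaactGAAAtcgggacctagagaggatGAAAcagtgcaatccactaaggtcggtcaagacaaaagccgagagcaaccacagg

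Sp100 and Ly6a were the other genes whose Nfkb2-/- libraries all lay below the wild-type ones. Sp100 encodes a protein of PML nuclear bodies, which take part in antiviral defence in the nucleus. It was at 163, 119 and 131 CPM in Nfkb2-/-, against 256, 176 and 207 CPM in wild type. Its log2 fold change was -0.63 (SE 0.182, edgeR adjusted p = 0.168). The adjusted p was 0.0480 with the replicate number as a block and 0.0459 with no count filter, both under the threshold. Its change was -0.47 without wild-type replicate 1 (edgeR adjusted p = 0.0606).

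Ly6a encodes Sca-1, a surface protein of stem cells and activated T cells. It was at 47.1, 39.9 and 43.2 CPM in Nfkb2-/-, against 51.8, 65.0 and 62.8 CPM in wild type. Here wild-type replicate 1 was the lowest of its genotype. The log2 fold change was -0.46 (SE 0.140, edgeR adjusted p = 0.185), and without wild-type replicate 1 it was -0.56 (SE 0.115, edgeR adjusted p = 0.00972), which passed the test. Ly6e, which with Ly6a spans 42.98 kb of chromosome 15, was at 815, 552 and 797 CPM in Nfkb2-/-, against 1123, 720 and 854 CPM in wild type. The genotypes overlapped for Ly6e, and its change was -0.32 on the log2 scale (SE 0.225, edgeR adjusted p = 0.622), or -0.13 without wild-type replicate 1.

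The genes that were higher in every Nfkb2-/- library were Oas1a, Ifitm2 and Parp12. Oas1a encodes an oligoadenylate synthetase, which on meeting double-stranded RNA makes a messenger that sets off RNA decay. It was at 20.9, 20.8 and 20.6 CPM in Nfkb2-/-, against 8.47, 14.3 and 15.6 CPM in wild type. The Nfkb2-/- libraries lay within 1 CPM of each other, and the wild-type values were all lower, with replicate 1 lowest. The log2 fold change was 0.70 (SE 0.237, edgeR adjusted p = 0.237), or 0.47 without wild-type replicate 1 (edgeR adjusted p = 0.0600). Ifitm2, of the family that blocks fusion of viruses with cell membranes, was at 3.39, 2.18 and 3.99 CPM in Nfkb2-/-, against 1.51, 1.66 and 1.93 CPM in wild type. Its log2 fold change was 0.91 (SE 0.333, edgeR adjusted p = 0.281), or 0.82 without wild-type replicate 1 (edgeR adjusted p = 0.184), and 40.9% of its exon bases are shared with the overlapping gene Gm45717, which the counts cannot separate.

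Parp12, a mono-ADP-ribosyltransferase, was at 21.3, 21.5 and 22.2 CPM in Nfkb2-/-, against 18.8, 17.6 and 14.8 CPM in wild type. Its log2 fold change was 0.34 (SE 0.155, edgeR adjusted p = 0.386), or 0.42 without wild-type replicate 1 (edgeR adjusted p = 0.0947). Over the whole set, 3 of 41 genes were above wild type without overlap and 3 below (7.32% each), beside 10.7% and 9.90% of all genes tested. These shares lie near those of all genes and show nothing particular to the set.

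**Figure D2:**
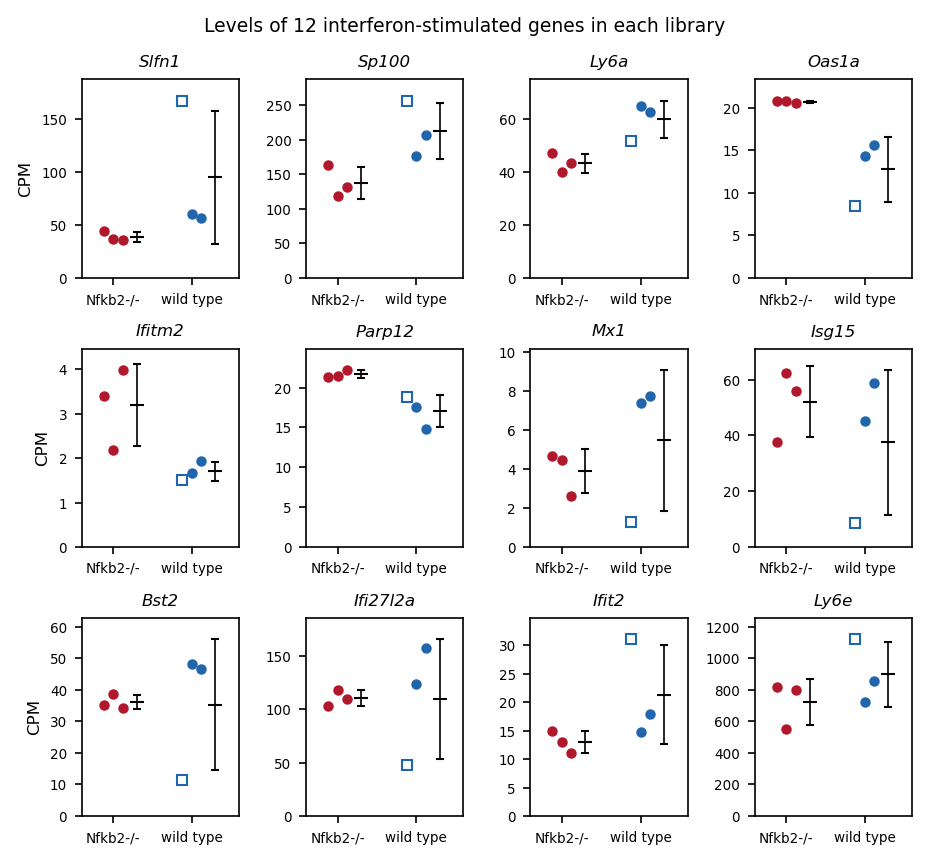
CPM of 12 interferon-stimulated genes in each library: red points are Nfkb2-/- replicates, blue points wild-type replicates 2 and 3, the open square wild-type replicate 1, and bars the mean ± SD (n = 3). Slfn1, Sp100 and Ly6a are lower and Oas1a, Ifitm2 and Parp12 higher in Nfkb2-/- without overlap, while in Mx1, Isg15, Bst2 and Ifi27l2a the open square lies below all other points.

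The other members of the OAS family did not separate the genotypes. Oas3 was at 18.4, 12.5 and 15.1 CPM in Nfkb2-/-, against 8.79, 14.3 and 13.7 CPM in wild type (log2 fold change 0.32). Oas2 was at 3.89, 2.11 and 2.20 CPM in Nfkb2-/-, against 1.13, 4.67 and 4.96 CPM in wild type (log2 fold change -0.37). Oas1a, Oas1g, Oas2 and Oas3 lie within 177 kb on chromosome 5, and their log2 fold changes had both signs. Oasl1, which in mice holds back translation of Irf7, and Oasl2 had log2 fold changes of -0.55 and -0.08. Leaving out wild-type replicate 1 gave 0.12 for Oas3, -0.82 for Oas2, -0.67 for Oasl1 and -0.28 for Oasl2, none of them called.

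ISG15 is a ubiquitin-like protein that is joined to other proteins, in mice largely by the ligase HERC6, and removed by USP18, which also blocks signalling at the receptor. Isg15 was at 37.8, 62.4 and 55.9 CPM in Nfkb2-/-, against 8.57, 45.3 and 58.8 CPM in wild type. Without wild-type replicate 1 its log2 fold change was 0.00 (SE 0.202), and with it 0.48 (SE 0.574). Usp18 was at 10.6, 7.60 and 7.003 CPM in Nfkb2-/-, against 18.3, 7.91 and 13.2 CPM in wild type, the highest value being wild-type replicate 1. Its log2 fold change was -0.65 (SE 0.324), and that of Herc6 was -0.24. They were -0.33 and 0.061 without wild-type replicate 1. Wild-type replicate 1 thus held the lowest Isg15 and the highest Usp18 and Herc6 of the 6 libraries.

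The IFIT proteins bind foreign RNA ends, and their genes form a cluster of 99.3 kb on chromosome 19, 11.7 Mb from Nfkb2. All 3 tested members had negative log2 fold changes. Ifit2 was at 14.9, 13.0 and 11.0 CPM in Nfkb2-/-, against 31.2, 14.8 and 17.9 CPM in wild type (log2 fold change -0.72, SE 0.291, edgeR adjusted p = 0.337). The genotypes touched, since the lowest wild-type value was just under the highest Nfkb2-/- value. Ifit3 was at 3.56, 2.18 and 1.47 CPM in Nfkb2-/-, against 1.56, 3.56 and 5.29 CPM in wild type (log2 fold change -0.51). Ifit1 differed little, with 7.86, 9.01 and 7.33 CPM in Nfkb2-/- and 7.17, 8.62 and 8.74 CPM in wild type (log2 fold change -0.02, SE 0.199). The changes were -0.33 for Ifit2, -0.88 for Ifit3 and -0.10 for Ifit1 without wild-type replicate 1, so both Ifit2 and Ifit3 moved by a large part of their size. Within the cluster the spread between libraries of wild type was thus wide for Ifit2 and Ifit3 and narrow for Ifit1.

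Of the sensors, Ddx58 (RIG-I) and Ifih1 (MDA5) recognise viral RNA, Dhx58 (LGP2) tunes them, Eif2ak2 (PKR) stops translation and Zbp1 binds Z-form nucleic acid and can start cell death. Ddx58 was at 62.1, 46.0 and 56.6 CPM in Nfkb2-/-, against 47.0, 48.1 and 51.2 CPM in wild type. Ifih1 was at 39.6, 47.7 and 37.5 CPM in Nfkb2-/-, against 17.4, 42.6 and 40.6 CPM in wild type. Log2 fold changes were 0.17 for Ddx58, 0.32 for Ifih1, 0.16 for Dhx58, -0.16 for Eif2ak2 and -0.38 for Zbp1, and all 5 genes overlapped between genotypes. Without wild-type replicate 1, Ddx58 was at 0.14, Dhx58 at -0.090, Eif2ak2 at -0.12, Ifih1 at 0.00 (SE 0.131) and Zbp1 at -0.59 (SE 0.173, edgeR adjusted p = 0.0617).

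PARP9 and DTX3L act as a complex that modifies histones and viral proteins, and PARP14 is another ADP-ribosyltransferase. Their genes lie within 140 kb on chromosome 16. Parp14 was at 201, 202 and 182 CPM in Nfkb2-/-, against 210, 191 and 153 CPM in wild type. Parp9 was at 48.8, 37.3 and 35.9 CPM in Nfkb2-/-, against 39.1, 37.7 and 40.0 CPM in wild type, while Dtx3l was at 72.4, 58.4 and 63.0 CPM, against 111, 59.7 and 47.4 CPM in wild type. Log2 fold changes were 0.08 for Parp14, 0.06 for Parp9 and -0.17 for Dtx3l, and without wild-type replicate 1 they were 0.18, 0.07 and 0.27. Parp9 and Dtx3l are read in opposite directions and share 458 exon bases, which an unstranded library cannot assign.

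Among the remaining effectors, Bst2 (tetherin, which holds budding virus on the cell), Isg20 (an exonuclease), Rsad2 (viperin, which makes a chain-ending nucleotide) and Mx1 (a GTPase that blocks influenza viruses) had their lowest value in wild-type replicate 1. Bst2 was at 35.2, 38.6 and 34.3 CPM in Nfkb2-/-, against 11.3, 48.1 and 46.7 CPM in wild type. The Nfkb2-/- libraries lay above wild-type replicate 1 and below replicates 2 and 3. The log2 fold change of Bst2 was 0.03 (SE 0.460), and -0.40 without wild-type replicate 1 (SE 0.116, edgeR adjusted p = 0.0535). Mx1 was at 4.63, 4.43 and 2.61 CPM in Nfkb2-/-, against 1.29, 7.36 and 7.73 CPM in wild type (log2 fold change -0.47, SE 0.600), and without wild-type replicate 1 its change was -0.95 (SE 0.269, edgeR adjusted p = 0.0461), which passed the test. By limma-voom with all libraries Mx1 was at 0.0023. Rsad2 and its neighbour Cmpk2, which supplies its substrate, had log2 fold changes of -0.15 and -0.59, and -0.56 and -0.88 without wild-type replicate 1.

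Isg20 was at 18.1, 17.5 and 17.9 CPM in Nfkb2-/-, against 5.45, 17.4 and 22.1 CPM in wild type. Trim30a was at 75.5 to 86.7 CPM in Nfkb2-/- and 81.4 to 99.9 CPM in wild type. Samd9l, which restricts translation, was at 112 to 145 CPM in Nfkb2-/- and 122 to 139 CPM in wild type. Ifi27 and Ifi27l2a had log2 fold changes of 0.18 and 0.01, Ifi44 0.21, Rtp4 0.07, Xaf1 -0.34, Ifitm1 0.37 and Ifitm3 -0.49, and each overlapped between genotypes. Without wild-type replicate 1, Isg20 was at -0.15, Trim30a at -0.16, Samd9l at -0.07, Ifi27 at -0.098, Ifi27l2a at -0.35, Ifi44 at -0.24, Rtp4 and Xaf1 at -0.30, Ifitm1 at 0.03 and Ifitm3 at -0.81, none of them called.

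Wild-type libraries differed more among themselves than Nfkb2-/- libraries did. The median ratio of highest to lowest library was 1.36 in Nfkb2-/- and 1.87 in wild type over the 41 genes, beside 1.22 and 1.47 over all genes tested. Between wild-type replicates 2 and 3 alone it was 1.18, beside 1.14 over all genes tested. For any gene, a ratio over a pair of libraries cannot exceed the ratio over all 3, so 1.18 is not comparable with the values above. Wild-type replicate 1 was the lowest of the 6 libraries in 18 of 41 genes (43.9%) and the highest in 10 (24.4%), beside 31.3% and 34.2% of all genes tested. It was lower than the mean of the other wild-type libraries in all 5 tested OAS genes, in 7 of 9 of the remaining effectors and in all 3 IFITM genes, and in none of the 4 PARP and DTX3L genes or the 3 Schlafen genes. The set thus did not shift as a block in this library.

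Gene length moved with this split. The genes were split at 2869 and 5493 exon bases, which divide all genes tested into equal parts. Among the 16 shorter genes, 14 were lower in wild-type replicate 1 than in the mean of replicates 2 and 3, with a median log2 ratio of -0.89. Among the 15 of middle length 7 were lower (median 0.01), and among the 10 longer ones 5 were lower (median 0.10). Over all genes tested, cut at the same lengths, the medians were -0.19, 0.02 and 0.13, in the same order but closer to zero in the short class. The part of length in the levels of wild-type replicate 1 was not tested.

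**Figure D3:**
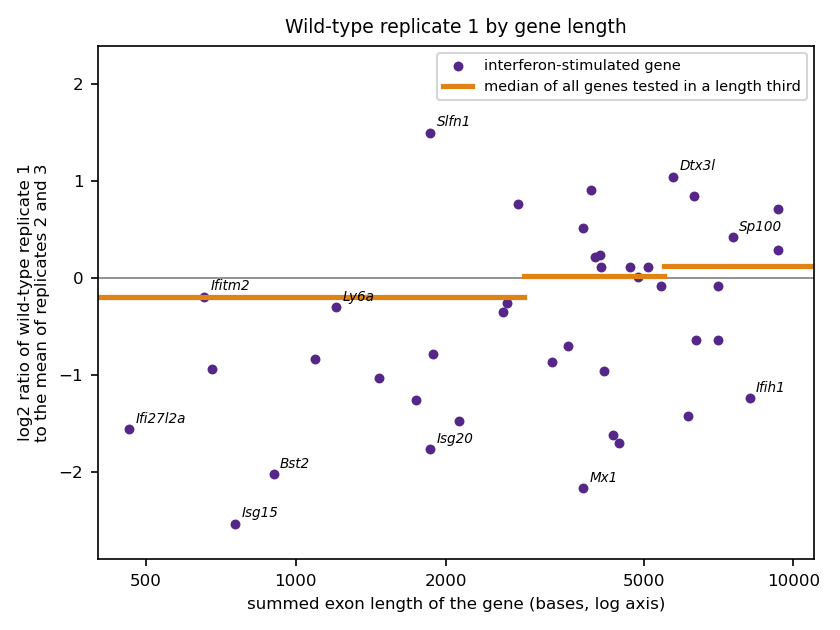
Log2 ratio of wild-type replicate 1 to the mean of wild-type replicates 2 and 3 (0.5 CPM added to each) against summed exon length on a log axis, for the 41 tested interferon-stimulated genes (points), with the median of all genes tested in each of 3 length classes (bars). Short genes such as Isg15, Bst2 and Ifi27l2a lie far below zero, and so do longer ones such as Mx1, while Slfn1 and Dtx3l lie above.

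Without wild-type replicate 1, 3 of 41 genes fell and 0 rose in Nfkb2-/- Tregs. The 3 were Slfn1, Ly6a and Mx1, with edgeR adjusted p-values of 0.0104, 0.00972 and 0.0461 for changes of -0.60, -0.56 and -0.95 (log2). The share called, 3 of 41, lies beside 9.04% of all genes in the same fit, where 4.60% of all genes rose and 4.44% fell, and the 16 of 41 at an unadjusted p under 0.05 lie beside 23.1%. Negative log2 fold changes numbered 29 and positive ones 12, with a median of -0.15 beside 0.00 over all genes. Below both wild-type replicates 2 and 3 in every Nfkb2-/- library were 12 genes (29.3%, beside 19.8% of all genes tested), and above them 3 (7.32%, beside 20.1%). The 12 were Slfn1, Sp100, Ly6a, Mx1, Bst2, Rsad2, Cmpk2, Zbp1, Oas2, Ifit3, Ifitm3 and Ifi27l2a.

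B cell markers moved in the same direction in these libraries. Summed over 8 markers, B cell transcripts came to 27.4, 36.5 and 49.1 CPM in Nfkb2-/-, against 74.2, 241 and 176 CPM in wild type, with replicates 2 and 3 highest, and 2 of the 8 fell in the fit over all libraries. All 8 fell without wild-type replicate 1, Cd79a with an edgeR adjusted p of 0.000161. None of the 8 was at 0 in any library. The 6 markers of plasmacytoid dendritic cells, cells known for making interferon, summed to 119 to 152 CPM in Nfkb2-/- and 66.8 to 145 CPM in wild type, with Runx2 the largest part in each library. Siglech, the most specific of them, was at 0, 3.59 and 3.75 CPM in Nfkb2-/-, against 0.108, 20.8 and 0.840 CPM in wild type. Of the 4 tested with all libraries, 3 had negative log2 fold changes and 0 passed. Runx2 went the other way, higher in every Nfkb2-/- library (log2 fold change 0.84). It was the only marker of this list called without wild-type replicate 1 (edgeR adjusted p = 0.00762). Klk1 and Cox6a2 were at 0 in wild-type replicate 1, as was Klk1 in wild-type replicate 3 and Cox6a2 in Nfkb2-/- replicate 1. The part of these cells in the levels of interferon-stimulated genes was not tested.

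**Figure D4:**
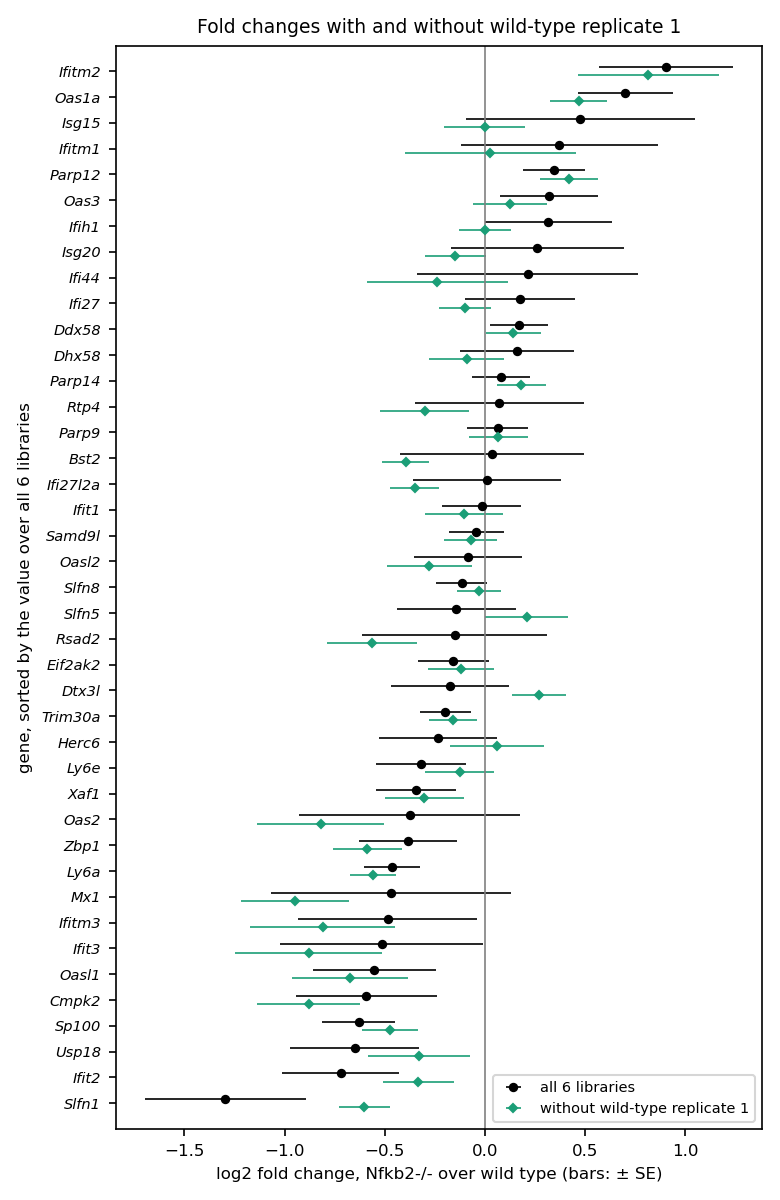
Log2 fold change of Nfkb2-/- over wild type for the 41 tested interferon-stimulated genes with all 6 libraries (black circles) and without wild-type replicate 1 (green diamonds), bars ± SE. The error bars shrink for most genes when that library is left out, Slfn1 moves from -1.30 to -0.60, and Bst2, Isg20 and Ifi27l2a change sign.

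Upstream of these genes, no pathway gene passed the test either. Of 43 listed genes of the pathway other than the interferon-stimulated ones, 34 were tested and 0 rose or fell, with a median log2 fold change of -0.08. The 7 interferon genes on the list had almost no counts. Ifna1, Ifna2, Ifna5 and Ifne had 0 counts in all libraries. By counting error alone this allows up to 0.211 to 0.248 CPM per library in Nfkb2-/- and 0.162 to 0.252 CPM in wild type. Reads shared between similar genes may be dropped in counting, and interferon genes outside the list were not examined. For Ifnb1, Nfkb2-/- libraries held 2 counts in all and wild type 1, for Ifna4 0 and 1, and for Ifnk 4 and 7. Trex1, whose exons lie wholly within those of Atrip, had 0 counts in every library.

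The receptor and the STAT2 and IRF9 subunits were well expressed. Ifnar1 was at 446, 403 and 421 CPM in Nfkb2-/-, against 353, 433 and 483 CPM in wild type (log2 fold change 0.00, SE 0.153, and -0.11 without wild-type replicate 1). Ifnar2 was at 50.6, 48.3 and 53.1 CPM in Nfkb2-/-, against 51.1, 58.0 and 62.1 CPM in wild type (-0.17, and -0.25 without wild-type replicate 1). Stat2 and Irf9 were lower in every Nfkb2-/- library by a small margin. Of all genes tested, 9.90% were below wild type without overlap and 10.7% above. Listed pathway genes not reported here also separated, with both directions among them, so no joint shift is read from Stat2 and Irf9. Stat2 was at 82.7, 85.2 and 82.6 CPM, against 109, 93.4 and 87.3 CPM in wild type, and Irf9 at 115, 120 and 128 CPM, against 129, 132 and 141 CPM in wild type. These changes were -0.21 and -0.15 on the log2 scale, with edgeR adjusted p-values of 0.533 and 0.643, and -0.11 and -0.17 without wild-type replicate 1. Irf7, the factor that amplifies interferon production, was at 70.6, 65.7 and 69.3 CPM in Nfkb2-/-, against 53.8, 78.3 and 91.0 CPM in wild type, with a change of -0.12 (log2), or -0.30 without wild-type replicate 1.

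Samhd1, a nucleotide-degrading virus restriction factor, was at 678, 462 and 472 CPM in Nfkb2-/-, against 1564, 733 and 746 CPM in wild type. Its change was -0.92 on the log2 scale (SE 0.324, edgeR adjusted p = 0.263), and -0.46 without wild-type replicate 1. In the fit without that library Irf2, which can repress interferon-stimulated genes, was called higher and Irf8, a factor of B cells and myeloid cells, lower (0.49 and -1.27 on the log2 scale, with edgeR adjusted p-values of 0.0258 and 0.0349), both named after their values were seen.

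**Figure D5:**
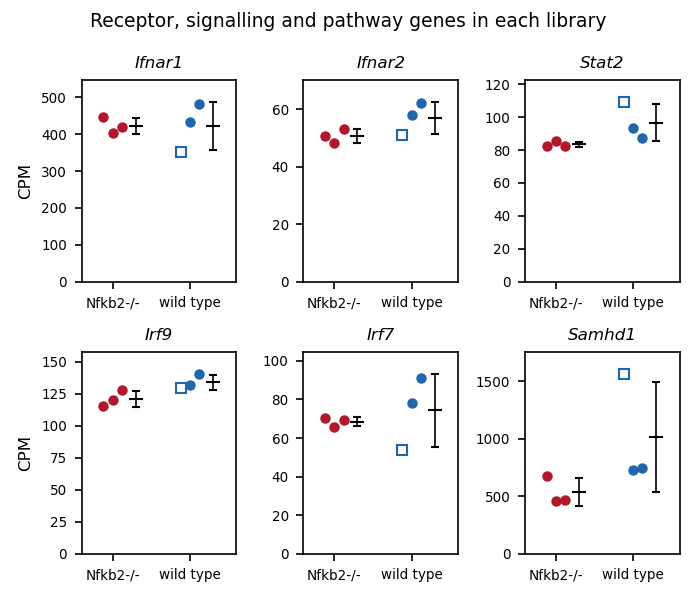
CPM of the receptor genes, of signalling and regulatory genes and of Samhd1 in each library: red points are Nfkb2-/- replicates, blue points wild-type replicates 2 and 3, the open square wild-type replicate 1, and bars the mean ± SD (n = 3). Stat2, Irf9 and Samhd1 are lower in Nfkb2-/- without overlap, as are 9.90% of all genes tested, while Ifnar1 and Irf7 overlap.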

How the data were processed

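The deposited values are raw read counts for each gene, from unstranded libraries per the labels. HISAT2, HTSeq, FastQC, DESeq2 and the build GRCm38 are listed in the submitters' processing notes; versions and counting mode are not given in the sources used here. Symbols, positions and exon lengths came from GENCODE M21 (GRCm38). The test was the robust quasi-likelihood fit of edgeR 4.0.16 (R 4.3.3) on genotype alone, after filterByExpr and TMM scaling, with Benjamini-Hochberg adjustment over all genes tested and a threshold of 0.05. Common dispersion corresponded to a biological coefficient of variation of 0.228. The SE is the log2 fold change divided by the square root of F. CPM values use TMM-scaled library sizes, and the floor for a count of 0 is 3 counts per library. Floors and intervals cover counting error only.

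Members and lists were chosen with earlier results of these data known. All 43 genes may be named; from the pathway list, the called genes or otherwise the 2 of smallest p, with the receptor chains, Stat2, Irf9 and Irf7. Some genes of the lists are not reported here. Trex1, the interferon genes and single marker genes other than Foxp3 were named after their values were seen. Replicates are the labels' biological repeats; every pair of libraries differed beyond sampling noise (lowest chi-square 5.82 per degree of freedom). Deviations of same-numbered libraries correlated at 0.381, 0.293 and 0.123, each over 0.1, which met the rule for pairing, although the labels do not say what a number marks and the third Nfkb2-/- library had a higher value, 0.271, with the wild-type library numbered 2. Printed values come from the unpaired fit, and the paired fit is given as the replicate block. On simulated counts for this comparison (13347 genes, 13132 tested) the test found 4 of 50 genes given a 1.5-fold change, 25 of 49 given 2-fold and 50 of 50 given 4-fold, with 5 false among 134 calls. Each fit was repeated with scaling by RLE or upper quartile, without the count filter, with a filter of 1 CPM in 3 libraries, with DESeq2 1.42.0, limma-voom (limma 3.58.1), with the replicate number as a block, and without each library. Figures used matplotlib 3.10.9 in Python 3.11.15.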

Additional observations from a re-analysis of the deposited data

How the results depend on the processing

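The count of interferon-stimulated genes called lower, 0 with all libraries, was 1 with no count filter (Sp100), 1 by DESeq2 (Slfn1) and 1 with the replicate block (Sp100), and 0 to 3 with each library left out; none was called higher under any alternative. Pathway genes called higher numbered 1 with no count filter and 1 by DESeq2, and 0 to 2 with a library left out, and those called lower 0 to 1. Over all genes, 135 rose and 54 fell, against 292 and 174 with no count filter, 428 and 252 by DESeq2, 196 and 93 with the replicate block, and 6 to 628 and 1 to 606 with each library left out. Only the fit without wild-type replicate 1 called any of the 41 genes among the fits that left out a library. Their median log2 fold change ran from -0.15 to -0.04 with a library left out. Among the 31 interferon-stimulated genes with a RefSeq promoter, the share with the ISRE core was 61.3%, and 41.9% when followed by AC.

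Signs turned in a few fits, with no call in those fits: limma-voom gave 0.0031 for Ifit1, 0.0023 for Mx1 (-0.47 by edgeR, and -0.95 and called without wild-type replicate 1) and 0.17 for Rsad2, the replicate block 0.0040 for Rsad2, no count filter -0.00089 for Ifi27l2a and -0.0097 for Ifnar1, and upper-quartile scaling -0.0079 for Ifnar1. With each library left out, log2 fold changes crossed zero for Bst2 (-0.40 to 0.31), Dhx58 (-0.090 to 0.34), Dtx3l (-0.40 to 0.27), Herc6 (-0.46 to 0.061), Ifi27 (-0.10 to 0.46), Ifi27l2a (-0.35 to 0.36), Ifi44 (-0.24 to 0.66), Ifit1 (-0.10 to 0.047), Ifnar1 (-0.11 to 0.11), Irf7 (-0.30 to 0.052), Isg15 (-0.00083 to 0.95), Isg20 (-0.15 to 0.65), Oasl2 (-0.28 to 0.082), Parp14 (-0.038 to 0.18), Parp9 (-0.089 to 0.14), Rsad2 (-0.56 to 0.18), Rtp4 (-0.30 to 0.42), Samd9l (-0.17 to 0.028) and Slfn5 (-0.36 to 0.21). The cause was not tested. With 3 libraries a genotype, 2-fold changes were found for only 25 of 49 genes on simulated counts, and 1.5-fold changes for 4 of 50. Sex, B cell transcript levels and genotype differ together.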

Other observations

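Interferon-stimulated genes with and without the ISRE core in their promoter window differed in where wild-type replicate 1 stood. Among the 17 tested genes with the core, 13 were lower in wild-type replicate 1 than in the mean of wild-type replicates 2 and 3, with a median log2 ratio of -0.64. Among the 12 tested genes with a promoter in the table and no core, 5 were lower, with a median of 0.16. Between genotypes the medians of the log2 fold change were -0.02 with the core and -0.29 without it, and without wild-type replicate 1 they were -0.07 and -0.29. Tested genes with no promoter in the table are in neither class, and the classes depend on which starts the table holds. These splits were made after the values were seen and carry no test.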
